A study of Mus musculus with 8 samples.

Results

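Expression of 10 genes of the distal convoluted tubule and its WNK kinase pathway was compared between kidneys lacking CTRP1 and wild-type kidneys. The genes were taken by name from the 35275 genes of the deposited table, and all 10 were found there. They are Slc12a3, the kinase pathway genes Wnk1, Wnk4, Stk39 and Klhl3, the potassium channel genes Kcnj10 and Kcnj16, the magnesium channel gene Trpm6, and Pvalb and Tmem52b. The KO group consisted of 4 male C57BL/6J mice with both copies of C1qtnf1, which encodes the circulating protein CTRP1, disrupted (Ctrp1-/-). The WT group consisted of 4 male littermates carrying 2 intact copies (+/+). Both groups were 40 weeks old and had eaten a high-fat diet, with 60% of its calories from fat, since the age of 6 weeks, so every value here is from mice on that diet. The deletion took out 679 bp at exon 4 that is inherited through the germline, so no cell type is singled out. It was made in 129S5/Sv embryonic stem cells and crossed to C57BL/6J for more than 6 generations. The RNA came from the whole left kidney of each mouse, without separation of nephron segments.

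The distal convoluted tubule is a short nephron segment behind the thick ascending limb. It takes up sodium and chloride through the thiazide-sensitive cotransporter NCC, the product of Slc12a3. WNK kinases phosphorylate SPAK (Stk39), and SPAK phosphorylates and activates NCC. KLHL3 hands WNK kinases to a cullin ubiquitin ligase for degradation, and mutations of WNK1, WNK4 or KLHL3 cause familial hyperkalaemic hypertension in humans. On the blood side of the cell, Kir4.1 (Kcnj10) and Kir5.1 (Kcnj16) form a potassium channel through which the cell senses plasma potassium. Much of this regulation acts on protein phosphorylation and breakdown, which RNA levels do not show. In whole-kidney RNA, fewer cells of a type and less RNA per cell cannot be told apart.

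The 8 libraries held 17884140 to 20344859 reads. C1qtnf1 itself lay between 5.27 and 5.55 FPKM (fragments per kilobase of gene length, scaled to the size of the library) in WT and between 0.322 and 0.883 FPKM in KO, so every library matched its label. The library of KO replicate 2 stood apart from the other 7. Genes of mitochondrial DNA made up 8.74% of its reads, against 3.01% to 4.85% elsewhere. Of the 12118 genes with a mean of at least 1 FPKM, which are the genes tested, 24.0% departed by more than 0.5 on the log2 scale from the median of the other 7 libraries. In the other libraries this share was 0.924% to 3.00%. The 10 genes are therefore described with and without that mouse, and each other gene list by its count and median both ways.

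All 10 genes passed the filter on low values. Because FPKM is scaled for length, their levels can be ordered, though the order depends on the gene lengths used. Those behind the FPKM were fitted. For Slc12a3 the fitted length was 3307 bases, against 11119 exon bases in the GENCODE M21 annotation, and for Kcnj16 3701 against 3936. In WT, Slc12a3 was the most abundant at 324 ± 25.3 FPKM (SD, n = 4), above 98.6% of the genes tested. Kcnj16 followed at 182 ± 11.0 FPKM, then Tmem52b at 75.8 ± 2.92, Wnk4 at 57.1 ± 3.93, Wnk1 at 37.5 ± 0.983 and Pvalb at 36.3 ± 4.37 FPKM. Klhl3 and Kcnj10 lay close together at 13.2 ± 0.270 and 13.2 ± 0.747 FPKM, Stk39 was at 9.13 ± 1.24 FPKM, and Trpm6 was lowest at 2.90 ± 0.220 FPKM. The WT ranges of neighbours in this order did not overlap, except those of Wnk1 and Pvalb and those of Klhl3 and Kcnj10. The coefficient of variation between WT mice ran from 2.04% for Klhl3 to 13.5% for Stk39. Counting error at the WT depth was 0.691% for Slc12a3 and at most 5.21%, for Trpm6.

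**Figure D1:**
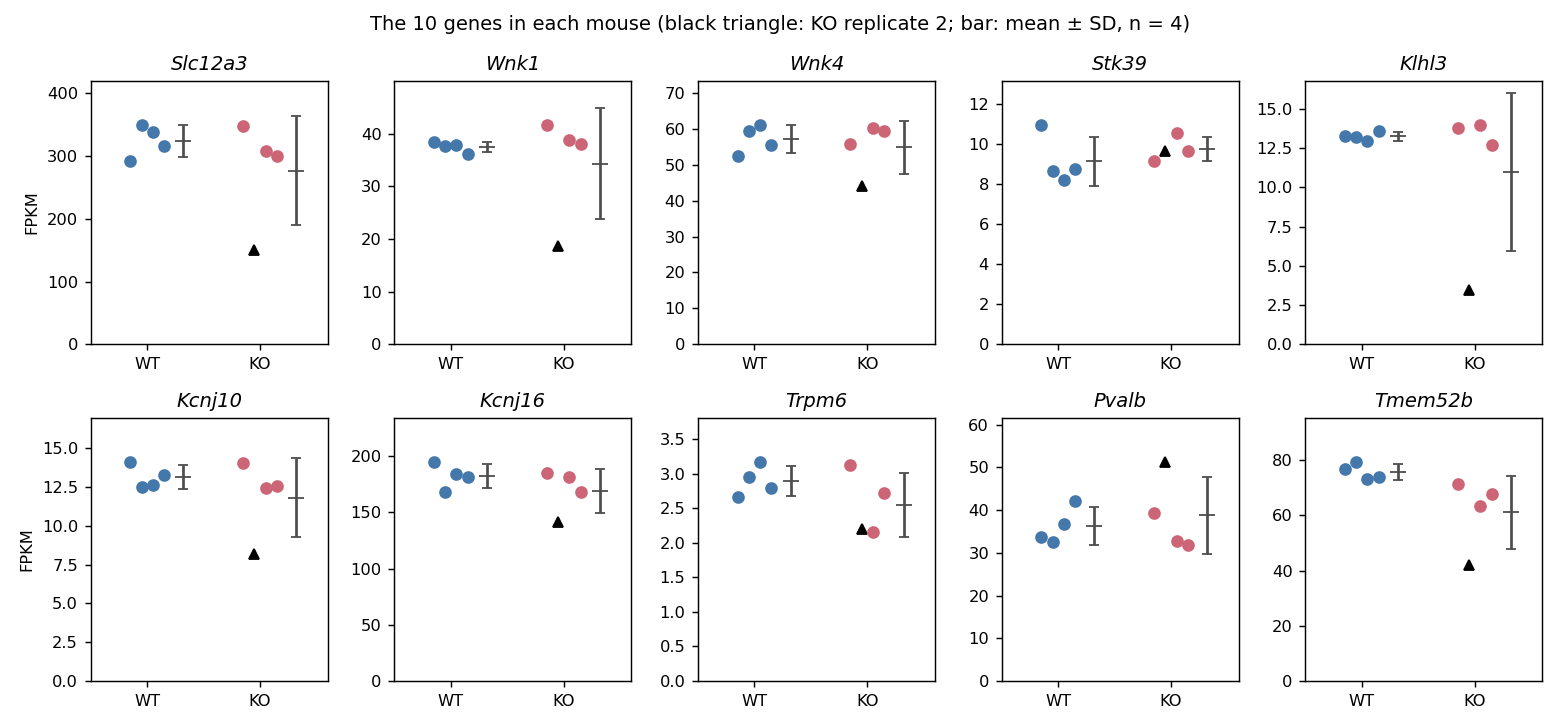
FPKM of each gene (y axis, from 0) in 4 WT and 4 KO mice; circles are mice, the black triangle is KO replicate 2, and bars give mean ± SD (n = 4). KO replicate 2 has the lowest value of all 8 mice in 7 of the 10 genes and the highest in Pvalb, while the other 3 KO mice lie among or near the WT mice.

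No gene of the set passed the test between KO and WT. Against 0 of 10 here, 5 of all 12118 genes tested passed (0.0413%), of which 2 were higher in KO (0.0165%) and 3 lower (0.0248%), by limma with Benjamini-Hochberg adjustment at 0.05. The adjusted p-values of the 10 genes lay between 0.808 and 0.942. At an unadjusted p under 0.05 there was 1 of 10, Tmem52b, against 5.95% of all genes, and limma-voom on reads recovered from the FPKM values also called 0 of the 10. The log2 fold changes, on the log2(FPKM + 1) scale, ran from -0.38 to 0.11 with a median of -0.14. The median over all genes tested was -0.0097. Without KO replicate 2 the range narrowed to -0.18 to 0.087 and the median to -0.026. Then 0 of 10 passed again, beside 21 of 12118 genes (0.173%), of which 9 were higher (0.0743%) and 12 lower (0.099%).

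Slc12a3 encodes the cotransporter NCC, the target of thiazide diuretics, and lies on chromosome 8 from 94329201 to 94366214 (mm10, plus strand). The WT mice had 293, 349.8, 338.8 and 315.6 FPKM. The KO mice had 347.7, 150.9, 307.6 and 300.9 FPKM, the low value being that of KO replicate 2. The other 3 KO mice lay within the WT range, and the groups overlapped. On the log2 scale, KO differed from WT by -0.27 ± 0.21 (SE; limma adjusted p = 0.865), with a 95% interval from -0.74 to 0.20. Without KO replicate 2 it was -0.03 ± 0.09 (limma adjusted p = 0.932), with an interval from -0.23 to 0.17. The lower bound corresponds to 0.852 times the WT level.

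Wnk1 (chromosome 6, 119923969 to 120038672, minus strand) encodes a chloride-sensitive kinase that activates SPAK. The distal convoluted tubule makes a short, kinase-deficient form of it from an internal promoter, and values per gene add up both forms. It was at 38.41, 37.74, 37.75 and 36.11 FPKM in WT and at 41.66, 18.73, 38.77 and 38.08 FPKM in KO. KO replicate 2 was again the lowest, at 49.2% of the median of the other 7 mice. The remaining KO mice all lay above the WT median. Its log2 fold change turned from -0.17 ± 0.19 (limma adjusted p = 0.875) to 0.065 ± 0.059 (limma adjusted p = 0.725) when KO replicate 2 was left out.

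Wnk4 (chromosome 11, 101260567 to 101277409, plus strand) encodes the kinase that is the main activator of SPAK in this segment. The level was 52.39, 59.44, 61.09 and 55.43 FPKM in WT and 55.89, 44.08, 60.19 and 59.33 FPKM in KO. Only KO replicate 2 lay outside the WT range. With all mice the log2 fold change was -0.04 ± 0.10 (limma adjusted p = 0.942), and 0.03 ± 0.08 without that mouse. An annotated gene on the opposite strand, Gm11615, shares 306 exon bases with Wnk4. Whether reads were counted by strand is not given in the sources used here, so reads of that stretch cannot be told apart.

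Stk39 (chromosome 2, 68210445 to 68472268, minus strand) encodes SPAK, the kinase that acts on NCC directly. Its values were 10.95, 8.628, 8.181 and 8.771 FPKM in WT and 9.124, 9.655, 10.56 and 9.633 FPKM in KO. This gene did not set KO replicate 2 apart, and the spread was wider in WT than in KO, since WT replicate 1 was the highest of all 8. KO was 0.11 ± 0.09 higher on the log2 scale (limma adjusted p = 0.865), and the value stayed at 0.09 ± 0.09 without KO replicate 2. Its 95% interval without that mouse, from -0.11 to 0.28, reached the highest upper bound of the set.

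Klhl3 (chromosome 13, 58000228 to 58113592, minus strand) encodes the adaptor that marks WNK kinases for degradation. It varied least between WT mice and most between KO mice. The WT values were 13.28, 13.19, 12.93 and 13.58 FPKM and the KO values 13.8, 3.479, 13.98 and 12.7 FPKM. KO replicate 2 had 202 reads of the gene and the other 7 mice 771 to 872. With that mouse the log2 fold change was -0.38 ± 0.32 (limma adjusted p = 0.865) and without it 0.017 ± 0.064 (limma adjusted p = 0.950). The second value had a 95% interval from -0.13 to 0.16.

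Kcnj10 (chromosome 1, 172341210 to 172374085, plus strand) and Kcnj16 (chromosome 11, 110968033 to 111027968, plus strand) encode the subunits of the basolateral potassium channel. Kcnj10 ranged from 12.51 to 14.15 FPKM in WT and from 12.46 to 14.07 in KO replicates 1, 3 and 4, with 8.194 in KO replicate 2. Kcnj16 ranged from 168.4 to 195.2 FPKM in WT and from 168 to 185.2 in those 3 KO mice, with 141.5 in KO replicate 2. Without that mouse the log2 fold changes were -0.02 ± 0.07 and -0.04 ± 0.07. Kcnj16 was 13.2 to 14.6 times as abundant as Kcnj10 in each of the other 7 mice, and 17.3 times in KO replicate 2. Kcnj16 lies 7.44 Mb from C1qtnf1 and Wnk4 lies 17.2 Mb from it, on the chromosome that may carry 129S5 sequence around the deletion. Neither gene passed the test, with or without KO replicate 2.

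Trpm6 (chromosome 19, 18749983 to 18892511, plus strand) encodes the apical magnesium channel of this segment, and Pvalb (chromosome 15, 78191114 to 78206400, minus strand) the calcium-binding protein parvalbumin of its early part. Trpm6 was at 2.667, 2.954, 3.174 and 2.787 FPKM in WT and at 3.127, 2.197, 2.151 and 2.725 in KO. KO replicates 2 and 3 were below every WT mouse, and 258 to 397 reads stood behind each value. On the log2 scale the difference was -0.13 ± 0.11 (limma adjusted p = 0.865), and -0.10 ± 0.11 without KO replicate 2.

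Pvalb was at 33.62, 32.44, 36.75 and 42.21 FPKM in WT and at 39.38, 51.36, 32.71 and 31.74 in KO. It was the gene of the set that stood highest in KO replicate 2, and that mouse alone was above the WT range. Its log2 fold change was 0.097 ± 0.17 (limma adjusted p = 0.917) with KO replicate 2 and -0.07 ± 0.11 without it. Parvalbumin is also a protein of fast skeletal muscle. Of 6 skeletal muscle genes listed, Acta1, Ckm, Myh4, Myh1 and Tnnt3 were at 0 to 0.175 FPKM in every mouse, and all of these were at 0 in KO replicate 2. The summed level of the 6 was 0.801 to 1.92 FPKM in WT and 0.939 to 1.42 FPKM in KO, nearly all of it Mylpf. Mylpf was at 1.348 FPKM in KO replicate 2, above the other KO mice (0.7791 to 1.242) and within the WT range (0.7472 to 1.674). The part of muscle RNA in the Pvalb values was not tested.

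Tmem52b (chromosome 6, 129512555 to 129519227, plus strand) encodes a membrane protein enriched in the distal nephron. Its values were 76.89, 79.48, 73.24 and 73.74 FPKM in WT and 71.4, 41.83, 63.22 and 67.71 FPKM in KO. It was the only gene of the set in which the groups did not overlap, every KO value being below every WT value. The same held for 3.01% of all genes tested, while 2.29% lay wholly above. Without KO replicate 2 these shares were 5.55% and 5.59%. The difference on the log2 scale was -0.32 ± 0.13 (limma unadjusted p = 0.0376, adjusted p = 0.808), with a 95% interval from -0.61 to -0.02. Without KO replicate 2 it was -0.18 ± 0.06 (limma unadjusted p = 0.0177, adjusted p = 0.335). With 1 of 10 genes at an unadjusted p under 0.05, against 5.95% of all genes, or 11.5% without that mouse, this is not a result that sets the group apart.

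**Figure D2:**
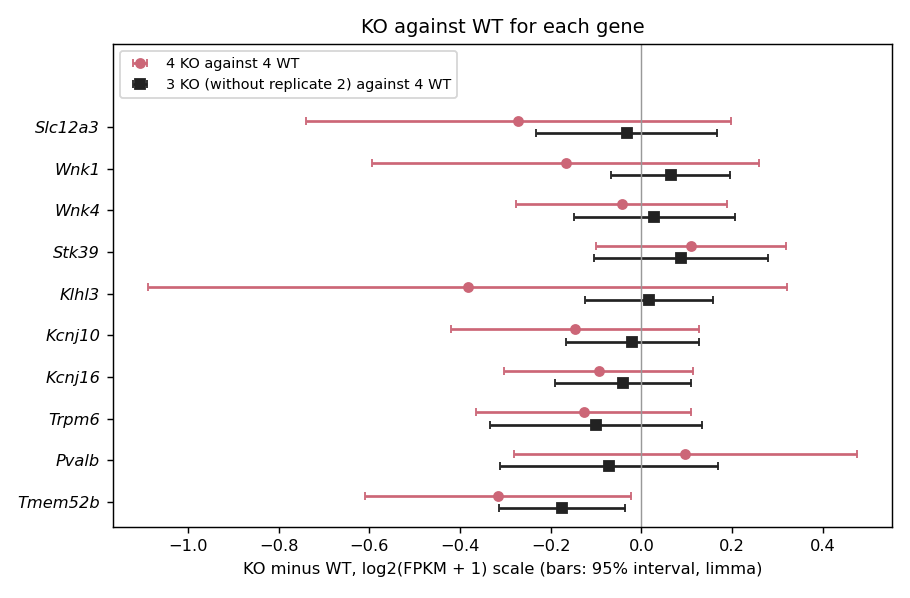
Log2 fold change of each gene between KO and WT (x axis, log2(FPKM + 1) scale; bars are 95% intervals from limma), with all 4 KO mice (circles) and without KO replicate 2 (squares). Without that mouse every interval lies between -0.33 and 0.28, and that of Tmem52b alone does not reach 0.

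Leaving out KO replicate 2 gave smaller standard errors. That mouse was set apart by values of these same libraries, so a narrower spread without it largely follows from the choice. It is no measure of a gain in precision. The standard errors of the 10 log2 fold changes ran from 0.094 to 0.32 with it and from 0.059 to 0.11 without it. The 95% intervals of the 10 genes then all lay between 0.793 and 1.21 times the WT level, against 0.470 and 1.39 times with all mice. These intervals are each for 1 gene and are not adjusted for their number. The sign of the fold change differed between both versions in 4 of 10 genes, namely Wnk1, Wnk4, Klhl3 and Pvalb.

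Within KO replicate 2 the genes of the set did not move together. Relative to the median of the other 7 mice, Klhl3 stood at 26.2%, Slc12a3 at 47.8%, Wnk1 at 49.2%, Tmem52b at 57.1% and Kcnj10 at 64.7%. Wnk4, Kcnj16 and Trpm6 stood at 74.3% to 78.8%, Stk39 at 106% and Pvalb at 153%. On the scaled log2 scale, 6 of the 10 departed by more than 0.5, against 24.0% of all genes in that mouse and 0 of 10 in each other mouse. It was the lowest of the 8 mice in 7 of the 10, and in 34.4% of all genes tested.

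Departures in KO replicate 2 went with gene length across all genes. The median was 0.50 on the log2 scale for the 1085 genes of up to 1 kb and -0.47 for the 504 genes of over 8 kb. In the other 7 mice the medians of these classes lay between -0.07 and 0.06. Pvalb, with a length of 977 bases behind its FPKM, departed by 0.73 and thus lay in the middle 80% of its class, from -0.15 to 0.90. Wnk1, the longest of the set at 11330 bases, departed by -0.88, near the lower end of its class at -0.89. Wnk4, Kcnj10 and Trpm6, of 4 to 8 kb, departed by -0.31, -0.51 and -0.19 around a class median of -0.28.

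Length classes did not place the other genes in the same way. Genes of 2 to 4 kb had a median of -0.0039 in KO replicate 2, and their middle 80% ran from -0.41 to 0.40. Stk39 and Kcnj16 lay inside that range, at 0.19 and -0.26. Klhl3 at -1.59, Slc12a3 at -0.97 and Tmem52b at -0.70 lay below it. All 5 have fitted lengths between 2875 and 3701 bases. Their exon lengths in GENCODE M21 are 7322 bases for Klhl3, 11119 for Slc12a3 and 3138 for Tmem52b. For Stk39 and Kcnj16 they are 4955 and 3936 bases. By those lengths Klhl3, Slc12a3 and Stk39 would fall in longer classes, so their places hold for the fitted lengths only. Only 0.123% of the 4875 genes of this class departed further down than Klhl3, 0.903% further than Slc12a3 and 2.69% further than Tmem52b. The part of RNA quality in these values was not tested.

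**Figure D3:**
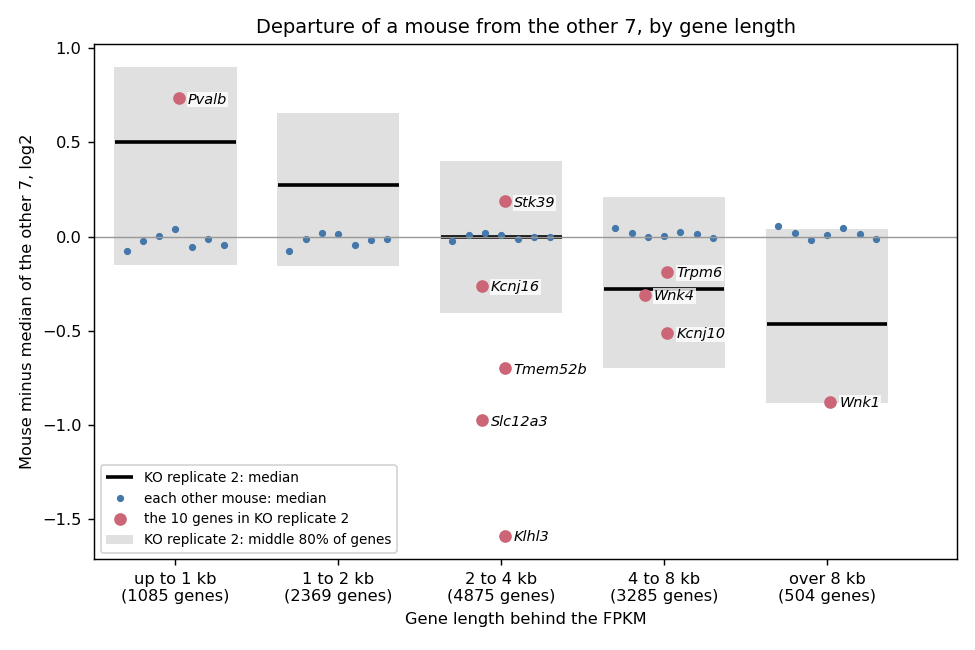
Departure of a mouse from the median of the other 7 (y axis, log2) for genes grouped by the length behind their FPKM (x axis): black lines are medians and grey bars the middle 80% of genes in KO replicate 2, blue points the medians of each other mouse, and red points the 10 genes in KO replicate 2. The black medians run from 0.50 in the shortest to -0.47 in the longest class. Klhl3, Slc12a3 and Tmem52b lie below the grey bar of the class that their fitted length gives.

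Ratios between genes of a library do not depend on how libraries are scaled. Wnk4 was at 0.176 ± 0.00460 times the level of Slc12a3 in WT (SD, n = 4) and at 0.161, 0.292, 0.196 and 0.197 times in the KO mice. The ratio of Pvalb to Slc12a3 lay between 0.0927 and 0.134 in WT, between 0.106 and 0.113 in KO replicates 1, 3 and 4, and at 0.340 in KO replicate 2. Wnk1 was the only gene whose ratio to Slc12a3 in KO replicate 2, 0.124, lay within the range of the other 7 mice, 0.108 to 0.131. Among the other 8 ratios, Klhl3 to Slc12a3 was below the range of the other mice and 7 were above it. Wnk4 to Wnk1 was 1.34 to 1.62 in the other 7 mice and 2.35 in KO replicate 2.

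Other genes of the WNK pathway also gave no call. Of 19 listed, 18 had a mean of at least 1 FPKM, and 0 rose, 0 fell and 18 did not pass. Their median log2 fold change was -0.02, with 9 of 18 positive. When KO replicate 2 was left out, the median was -0.018, 7 of 18 were positive and 0 passed. Slc12a2, the basolateral sodium, potassium and chloride cotransporter NKCC1, averaged 8.99 ± 1.29 FPKM over the WT mice and 10.3 ± 1.49 FPKM over the KO mice (SD, n = 4 each; limma adjusted p = 0.850). The KO mean of Slc12a2 without KO replicate 2 was 11.0 ± 0.738 FPKM (limma unadjusted p = 0.0109, adjusted p = 0.314). Of the 18 genes, 1 had an unadjusted p under 0.05 by limma without that mouse, against 11.5% of all genes tested. Oxsr1, which encodes OSR1, the kinase most like SPAK, was at 13.3 ± 1.16 and 11.4 ± 2.50 FPKM, the KO mean being 12.6 ± 0.787 FPKM without KO replicate 2. The calcineurin catalytic subunit genes Ppp3ca and Ppp3cb were at 14.6 ± 2.74 and 16.7 ± 2.36, and at 10.5 ± 1.74 and 9.05 ± 0.799 FPKM. Cul3, the cullin that works with KLHL3, averaged 20.9 FPKM in WT against 22.1 in KO, and Sgk1, an aldosterone-induced kinase, 22.3 and 21.9 FPKM. The 1 gene under the filter was Wnk3, a further kinase of the family.

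Genes of distal magnesium handling and of basolateral transport were listed as 16, of which 15 were tested and 0 passed, with a median log2 fold change of -0.05 and 5 of 15 positive. With KO replicate 2 left out, 1 of 15 passed, against 0.173% of all genes tested. The median was then -0.04 and 6 of 15 were positive. The gene that passed is not reported here. Egf, a growth factor gene of the distal convoluted tubule and thick ascending limb that stimulates TRPM6, did not overlap between groups, as was the case for 5.3% of all genes tested, in either direction, or 11.1% without KO replicate 2. The WT mice had 327.7, 321.6, 355.3 and 317 FPKM and the KO mice 309.7, 188.7, 285.7 and 300.2 FPKM. Its log2 fold change was -0.29 ± 0.14 (limma adjusted p = 0.821), and -0.15 ± 0.07 without KO replicate 2 (limma adjusted p = 0.454). The magnesium channel relative Trpm7 was at 13.2 ± 0.883 and 11.6 ± 1.78 FPKM (limma adjusted p = 0.858).

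Of 8 genes of distal calcium handling and other markers of the segment, 0 passed, 4 were positive, and the median log2 fold change was 0.01. With KO replicate 2 omitted, 0 passed, 5 of 8 were positive and the median was 0.05. The homeobox gene Emx1 averaged 53.8 ± 1.53 FPKM in WT against 65.6 ± 6.08 in KO (limma adjusted p = 0.701). Every KO value lay above every WT value, as in 2.29% of all genes tested, or 5.59% without KO replicate 2. That mouse had the highest Emx1 value, 70.69 FPKM. The KO mean without it was 64.0 ± 6.20 FPKM (limma adjusted p = 0.327). The calcium pump gene Atp2b4 ranged from 2.155 to 2.751 FPKM in WT and from 0.9876 (KO replicate 2) to 2.517 in KO, where the mean without that mouse was 2.34 ± 0.157 FPKM (n = 3). The median departure of these 8 genes in KO replicate 2 was -0.0013, against -0.41 for the 10 genes of the set. They ranged there from -1.32 for Slc8a1, the basolateral sodium and calcium exchanger, to 0.85 for S100g, a calcium-binding protein gene with a length of 480 bases. The calbindin gene Calb1, another calcium buffer of the segment, departed by 0.14 and the calcium channel gene Trpv5 by -0.08.

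Neighbouring cell types were measured beside these genes. Thick ascending limb markers summed to 1344 to 1600 FPKM in WT, to 1333 to 1401 in KO replicates 1, 3 and 4, and to 1061 in KO replicate 2. Most of that sum was Umod, at 814.6 FPKM in KO replicate 2. The median departure of the list in that mouse was -0.086 on the log2 scale, within the -0.142 to 0.168 of the other mice. Of 7 tested 0 passed, and Umod and Slc12a1 had the lowest p, Umod being at 1182 ± 114 and 1009 ± 132 FPKM and Slc12a1 at 156 ± 27.3 and 133 ± 24.3 FPKM. Principal cell markers summed to 362.1 to 488.9 FPKM in WT and 441.8 to 597.6 in KO. Among 7 tested 0 passed, with Aqp2 at 203 ± 35.1 and 313 ± 61.8 FPKM and Fxyd4 at 12.3 ± 1.82 and 16.2 ± 3.80 FPKM. Aqp2 was the largest part of the sum. The log2 fold changes of Aqp3, Aqp4, Scnn1b, Scnn1g and Hsd11b2 were -0.03, 0.20, 0.07, 0.008 and 0.18. Intercalated cell markers summed to 129.4 to 141.3 FPKM in WT and 129.5 to 137.3 in KO, and 0 of 7 passed, with Foxi1 at 9.20 ± 0.390 and 7.89 ± 1.39 FPKM and Atp6v1g3 at 10.8 ± 1.10 and 12.9 ± 4.40 FPKM. The KO mean of Atp6v1g3 was 10.7 ± 1.27 FPKM without KO replicate 2.

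With all mice the median log2 fold changes of the thick ascending limb, principal cell and intercalated cell lists were -0.08, 0.18 and 0.0076, with 1, 6 and 4 of 7 genes positive. Among the other 7 mice they were -0.08, 0.12 and -0.016, with 2, 6 and 2 of 7 positive. No gene of these lists passed without that mouse.

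Proximal tubule markers summed to 4866 to 5656 FPKM in WT and 4621 to 5451 in KO, with 0 of 8 past the threshold, Slc5a12 at 86.1 ± 8.79 and 66.0 ± 19.2 FPKM and Slc22a12 at 504 ± 39.4 and 583 ± 31.9 FPKM. Podocyte markers summed to 112.8 to 118 FPKM in WT and 84.07 to 126.4 in KO, with 0 of 5 past the threshold, Podxl being at 55.2 ± 1.13 and 50.6 ± 11.8 FPKM. In KO replicates 1, 3 and 4 the mean of Slc5a12 was 75.3 ± 6.23 FPKM and that of Podxl 56.2 ± 4.65 FPKM, the latter above the WT mean. The median log2 fold change of the proximal tubule list was -0.11 with KO replicate 2 (2 of 8 positive) and -0.04 without it (4 of 8). The podocyte list went from -0.0076 (2 of 5 positive) to 0.099 (5 of 5), and 0 genes of either list passed without that mouse. Urothelium markers summed to 3.463 to 9.271 FPKM in WT and 12.58 to 30.23 in KO, without overlap. All 5 urothelial genes tested were positive and all 5 had an unadjusted p under 0.05 by limma, against 5.95% of all genes, with a median log2 fold change of 0.82. Both counts without KO replicate 2 were again 5 of 5, against 11.5% of all genes at that p, and the median was 1.07. None of the 5 passed after adjustment, with or without that mouse, Psca being at 1.92 ± 1.58 and 9.29 ± 3.71 FPKM and Upk3a at 0.861 ± 0.417 and 3.16 ± 1.24 FPKM (limma adjusted p = 0.153 and 0.163). No urothelial gene was at 0 in all mice. The part of the sampled amount of renal pelvis in the values of the distal tubule genes was not tested.

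Immediate early and heat shock genes, a sign of stress or handling, summed to 76.97 to 102 FPKM in WT, to 122.8 to 145.7 in KO replicates 1, 3 and 4, and to 318.1 in KO replicate 2. Of 8 tested 0 passed and 8 were positive, against 47.2% of all genes, with a median log2 fold change of 0.73. An unadjusted p under 0.05 by limma was reached by 2, Hspa1a and Hspa1b, against 5.95% of all genes. When that mouse was left out, 0 passed, 6 of 8 were positive and the median was 0.22. With all mice Hspa1a was at 4.26 ± 1.14 FPKM in the WT group and 11.7 ± 6.50 FPKM in the KO group, and its near-identical copy Hspa1b at 10.2 ± 2.49 and 30.3 ± 19.2 FPKM. These heat shock genes were highest in KO replicate 1, at 20.9 and 56.71 FPKM, and not in KO replicate 2, at 5.588 and 10.76 FPKM. The transcription factor genes Jun and Junb were at 70.18 and 112.9 FPKM in KO replicate 2, against 13.35 to 16.63 and 21.15 to 22.97 FPKM in WT. The median departure of the list in that mouse was 2.02 on the log2 scale, against -0.43 to 0.65 in the other mice. Its part in the levels of Slc12a3, Klhl3, Wnk1 and Tmem52b in that mouse was not tested.

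**Figure D4:**
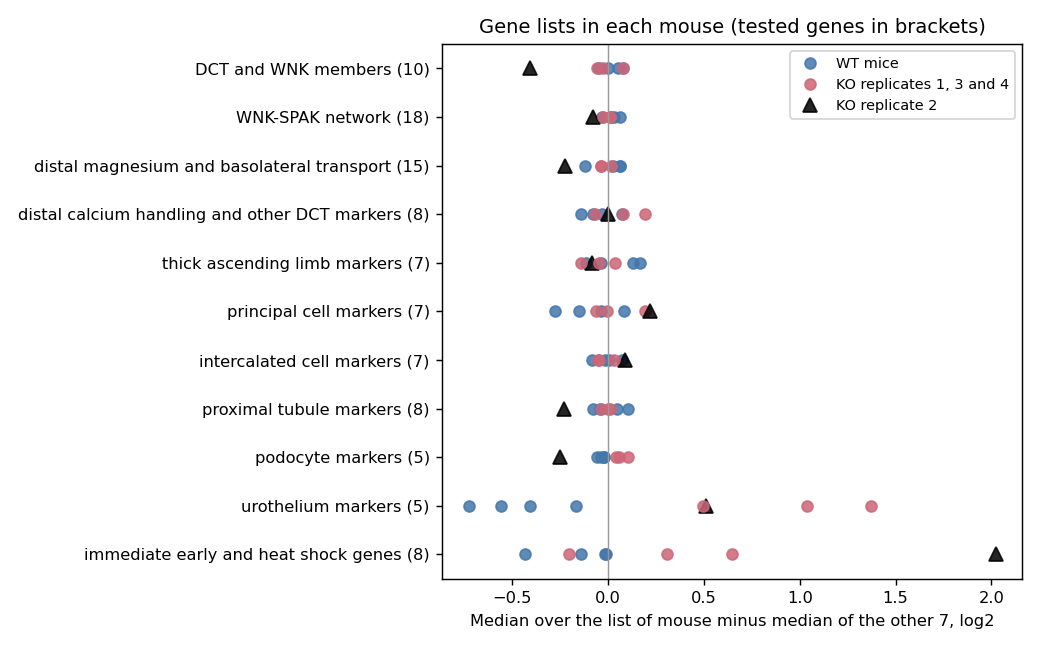
Median over each gene list of a mouse's departure from the median of the other 7 (x axis, log2; tested genes in brackets) for WT mice (blue), KO replicates 1, 3 and 4 (red) and KO replicate 2 (black triangle). The triangle is at -0.41 for the 10 genes described here, at -0.0013 for the other markers of the distal convoluted tubule and at 2.02 for the immediate early and heat shock genes.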

How the data were processed

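The deposited table gives 1 value per gene and mouse without a unit in its header. The deposited values were treated as FPKM, because low values of a gene are whole multiples of a step set by its length. The submitters' processing notes name CASAVA, STAR 2.5 and HTSeq 0.6.1, and mm10 as build, and the sources used here give no settings. Library totals, gene lengths and reads were recovered from these steps: all 22945 genes above 0 gave whole reads within 0.002 reads plus a share of 2e-08 of the count, against 0.0% of 500 genes when the totals were moved by up to 0.1%. Only 5865 genes did so at the exon length of GENCODE M21 (mm10), which gave the coordinates (34490 genes matched by identifier), so lengths are fitted ones. Intervals cover spread between mice, and counting error assumes independent reads.

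A count test had been planned for raw counts. For FPKM, limma 3.58.1 (R 4.3.3, statmod 1.5.0; trend and robust moderation) was run on log2 of FPKM after scaling, with a pseudocount of 1. Libraries were scaled by TMM on the recovered reads (factors of 0.936 to 1.05). A fold change on this scale understates that of low genes. Genes with a mean of at least 1 FPKM were tested, two-sided, with adjusted p under 0.05 as the threshold. The procedure was tested on simulated data in which no library stood apart. That trial therefore does not cover a library like that of KO replicate 2. The 4 mice per group gave 1 kidney each. Some label numbers of WT and KO mice are adjacent, but the labels state no pairing. The departure of a mouse is its log2 value less the median of the other 7. The 10 genes and the lists were chosen with earlier results of these data known. Named beside the 10 genes were C1qtnf1, the genes of each list past the threshold or else the 2 with the lowest p (4 in the longer pathway lists), and the 5 genes most like Slc12a3. Some genes that this rule names are not reported here. Cul3, Sgk1, Wnk3, Jun, Junb, Slc8a1, S100g, Calb1, Trpv5 and the muscle genes were named after their values were seen. Alternatives changed the scaling, filter, pseudocount and weights, used limma-voom, or left out each mouse.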

Additional observations from a re-analysis of the deposited data

Results flagged for a closer look

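In 36 named genes, 72 groups of 4 mice were searched for a mouse far from the other 3, and 3 were found. For independent groups the rule flags about 1 in 20 by chance. Genes of the same mice are not independent, so this count gives no verdict on any flagged value. KO replicate 2 held 2 of the 3. KO replicate 2 had 18.7 FPKM of Wnk1, against 38.1 to 41.7 in the other KO mice. It had 3.48 FPKM of Klhl3, against 12.7 to 14.0. WT replicate 1 had 18.6 FPKM of Ppp3ca, against 12.6 to 13.7 in the other WT mice.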

How the results depend on the processing

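None of the 10 genes passed in those of the 15 alternatives that tested them (Trpm6 was not tested with a minimum of 5 FPKM), the lowest adjusted p being 0.174 (Tmem52b, with array weights) and the highest 0.999. Leaving out each mouse in turn gave the 10 genes a median log2 fold change of -0.21 to -0.026. With array weights 30 genes of all tested were higher in KO and 29 lower, in place of 2 and 3, and 1 gene each of the magnesium and basolateral list and of the urothelium list passed. With a minimum of 5 FPKM, 1 gene was higher. Leaving out a mouse gave 2 to 16 higher and 1 to 12 lower genes: 4 higher without WT replicate 2 or KO replicate 4, 9 without KO replicate 2 and 16 without KO replicate 3; 1 lower without WT replicate 1 or WT replicate 3, 12 without KO replicate 2 and 5 without KO replicate 4. The magnesium and basolateral list and the urothelium list then had 0 to 1 gene past the threshold, the former 1 without KO replicate 2 and the latter Psca without WT replicate 2 (limma adjusted p = 0.0355) and Upk3a without KO replicate 3 (0.045). Log2 fold changes that turned sign ran from -0.27 to 0.065 for Wnk1, -0.10 to 0.028 for Wnk4, -0.54 to 0.017 for Klhl3, -0.072 to 0.19 for Pvalb, -0.023 to 0.34 for Atp6v1g3 and -0.22 to 0.014 for Podxl when each mouse was left out, and with array weights were 0.038 for Wnk1, 0.0034 for Wnk4 and -0.10 for Pvalb. Wnk4 turned without KO replicate 2 and also, at 0.0017, without WT replicate 3, the other 5 only without KO replicate 2. The cause was not tested. No paired analysis was possible because the labels used here tie no WT mouse to a KO mouse by litter or batch. For Trpm6, at 258 to 397 reads a mouse, counting error was about 5.21%, below the spread of 7.59% between WT mice.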

Other observations

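By the pattern over the 8 mice, the 5 genes most like Slc12a3 among 12117 others were R3hdm1, Xylt1, Setd5, Ankle2 and Lrp2, picked for this likeness. Pearson's r with Slc12a3 was 0.983 to 0.990 over the 8 mice and 0.858 to 0.935 over the 7 mice without KO replicate 2, the mice sharing library and depth between genes. Among the 9 other genes of the distal convoluted tubule set, r with Slc12a3 ran from -0.704 (Pvalb) to 0.964 (Wnk1) over the 8 mice and from -0.851 (Stk39) to 0.703 (Trpm6) over 7. Without KO replicate 2, r went from 0.964 to 0.513 for Wnk1, from 0.958 to 0.415 for Klhl3, from 0.929 to 0.451 for Tmem52b and from 0.910 to -0.0046 for Kcnj10. It went from 0.798 to 0.584 for Wnk4, from 0.743 to -0.034 for Kcnj16 and from 0.587 to 0.703 for Trpm6. Stk39 went from -0.628 to -0.851, and Pvalb turned from -0.704 to 0.450. Lrp2 encodes megalin, an endocytic receptor of the proximal tubule, and not a gene of the distal convoluted tubule. All 5 were low in KO replicate 2, with departures from -0.39 (Ankle2) to -1.81 (Xylt1) on the log2 scale. Their lengths ran from 3191 (Xylt1) to 15460 bases (Lrp2).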
